A study of Mus musculus with 2 samples.

Results

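Natural killer T-like cells were picked out among mouse spleen T cells by what they transcribed. A T cell was taken when it had at least 1 molecule of Zbtb16 or Klrb1c and 0 molecules of Cd8a, Cd8b1, Trdc, Foxp3 and Cd79a. The choice rests on measured values, so the 2 selecting genes are a description and carry no test. The rule found 215 cells among 15278 T cells, out of 16123 cells that passed the filters. They came from 3 pools, with 54 cells after saline, 95 at 4 h and 66 at 8 h after remimazolam.

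Natural killer T cells are T cells whose semi-invariant αβ receptor recognises lipids held by CD1d, and they share surface receptors with natural killer cells. Their program depends on the zinc finger factor PLZF, encoded by Zbtb16, which acts while they mature in the thymus, and they release cytokines soon after activation. In mouse spleen and liver many belong to a T-bet-dependent type that makes interferon-γ, while other types resemble Th2 or Th17 cells.

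The animals were female C57/BL6N mice, called C57BL/6 in another label, with 3 mice in each group. They received saline, labelled 0 h, or remimazolam at 6 mg/kg, and spleens were taken 4 h or 8 h after the drug. Remimazolam is a short-acting benzodiazepine that acts on GABA(A) receptors. No saline group was labelled for 4 h or 8 h, so drug and time after injection cannot be told apart. Each group's 3 spleens shared 1 sample tag and form a pool, and the 3 pools were sequenced as 1 BD Rhapsody capture, so each barcode belongs to 1 pool. The labels conflict on the sort, given as CD45+CD3+CD5+ under the treatment and the cell type and as CD45+ under the extraction. With 1 pool per treatment no value has a replicate check and no difference between treatments was tested. All intervals are 95% intervals that cover counting error only.

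The 3 pools held 5013, 5133 and 5132 T cells, in the order saline, 4 h and 8 h that is kept throughout, with medians of 2548, 2529 and 2532 molecules per cell. The natural killer T-like cells held 173189, 267160 and 203007 molecules in all, with medians of 2807, 2575 and 2894 molecules and 9.64, 8.9 and 9.13% mitochondrial molecules per cell. Levels are given in CPM, a gene's molecules scaled to the total molecules of the same cells, and 3 molecules equal 17.3, 11.2 and 14.8 CPM. The saline cells had the fewest tag reads, with a median per cell of 148, 419 and 296. At least 90% of tag reads came from the called tag in 46 of the 54 saline cells, 94 of the 95 cells at 4 h and all 66 at 8 h. Those shares of 85.2, 98.9 and 100% compare with 95.6, 98.7 and 98.9% of all T cells, so the saline natural killer T-like cells lay below the T cells of their own pool.

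Of the 5 markers of the label, 3 were not used by the rule, and each stood well above its level in other T cells in every pool. Cxcr6, on chromosome 9 at 123806475 to 123811760 in GRCm38, encodes a chemokine receptor that retains these cells in tissues such as the liver. It stood at 508, 1085 and 857 CPM, against 56.6, 67.8 and 57.7 CPM in the other T cells of the same pools. Ccr2, on chromosome 9 at 124101950 to 124113557, encodes a receptor for monocyte-attracting chemokines and stood at 306, 419 and 631 CPM against 16.6, 28.7 and 21.9 CPM. Id2, on chromosome 12 at 25093799 to 25097140, encodes an inhibitor of E-protein factors that innate-like lymphocytes use. Its level was 1686, 2470.4 and 2315 CPM against 187, 214 and 183 CPM. In the plot of levels by pool, the filled points of each of these 3 genes lie above its open ones.

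**Figure D1:**
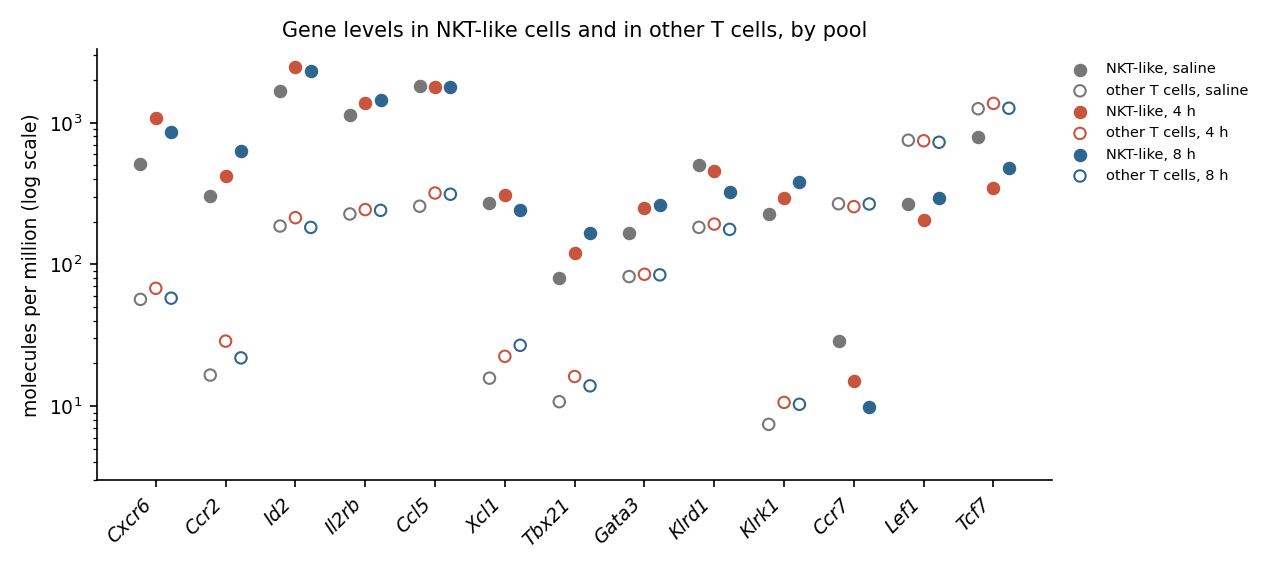
Levels in CPM (log scale) of Cxcr6 and 12 other genes in natural killer T-like cells (filled) and in all other T cells (open) of the saline, 4 h and 8 h pools, 1 point per pool with no error bar. The filled points lie above the open ones for every gene from Cxcr6 to Klrk1 and below them for Ccr7, Lef1 and Tcf7.

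Cells that should lack the selecting genes hardly had them. Of 392 B cells, taken as CD3-negative cells with a Cd79a molecule, 0 had Zbtb16, with an interval up to 0.937%, and 1 had Klrb1c. Of 5116 naive CD8 T cells 0 had Zbtb16, with an interval up to 0.0721%, and 9 had Klrb1c. Their median molecule numbers were 2180 and 2720, beside 2769 in the natural killer T-like cells. Cxcr6 was less exclusive, with 1 of the 392 B cells but 20.5% of naive CD8 T cells holding a molecule.

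The 2 selecting genes divided the cells unequally. Klrb1c, on chromosome 6 at 128778485 to 128789215, encodes the NK1.1 antigen of this strain and was present without Zbtb16 in 34, 60 and 38 cells. Zbtb16, on chromosome 9 at 48654297 to 48836222, was present without Klrb1c in 14, 22 and 16 cells, and both were present in 6, 13 and 12. Cells just inside the threshold, with 1 molecule over both genes, numbered 28, 42 and 28, and 39.3, 73.8 and 60.7% of them had Cxcr6. Of cells with 2 or more such molecules 53.8, 83 and 73.7% had Cxcr6. Just outside the threshold, T cells with no molecule of either gene and none of the 5 excluded genes had Cxcr6 in 1.88, 3.55 and 2.63% of cells. A further 4, 11 and 9 T cells had Zbtb16 or Klrb1c and were kept out by exactly 1 molecule of an excluded gene.

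The invariant receptor itself could not be read from these molecules. Traj18, the joining segment of the invariant α chain, had 0, 0 and 4 molecules in the selected cells, and Trbv13-2, a β segment often paired with it, had 0, 8 and 0. Trac was detected in 96.3, 96.8 and 100% of the cells, and Trbc1 or Trbc2 in all of them. Tcrg-C1, Tcrg-C2 or Tcrg-C4, constants of the γ chain, were also detected, in 46.3, 45.3 and 60.6% of the cells against 3.93, 5.1 and 4.2% of the other T cells. T cells with Trdc had these γ constants in 51.4, 61.1 and 49.3% of cells but Trac in only 68.6, 55.7 and 71%. Their Cxcr6 was low, at 97.9, 114 and 68.1 CPM. How many selected cells were γδ T cells whose Trdc went undetected was not tested. The selected cells without any γ constant molecule, a division chosen after its values were seen, had Cxcr6 at 411, 1232 and 785 CPM.

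Genes of other cell types were measured beside these. All 6 neutrophil genes were at 0 in every pool, and of 5 erythroid genes only Hba-a2 had a molecule, at 4 h. The B cell list summed to 289, 195 and 236 CPM against 483, 559.5 and 668 CPM in other T cells, with Ms4a1, H2-Eb1 and Ebf1 among the genes at 0 in each pool. The plasma cell list summed to 86.6, 93.6 and 98.5 CPM against 123, 324 and 342 CPM, with Jchain and Mzb1 at 0 in each pool. Those lists lay below the other T cells in every pool. The rule had required 0 molecules of Cd79a in the selected cells and not in the other T cells. The lower B cell and plasma cell sums are therefore not independent of the rule. The myeloid list summed to 572, 318 and 498 CPM against 307, 325 and 314 CPM, with Lyz2, Csf1r, Itgam, C1qa, C1qb and Adgre1 at 0 in each pool. The natural killer cell list summed to 779, 494 and 626 CPM against 169, 164 and 165 CPM. The natural killer and myeloid lists were both lowest at 4 h, and they share Tyrobp and Fcer1g, signalling adaptors. Tyrobp had 19, 3 and 13 molecules and Fcer1g had 42, 34 and 38, while Ncr1, the natural killer receptor NKp46, had 4, 1 and 5. The regulatory T cell list summed to 606, 528 and 679.8 CPM against 264, 294 and 292 CPM. Of the CD8 T cell list the rule had required 0 molecules of Cd8a and Cd8b1, and its other genes, Ccl5 and Ly6c2, summed to 2414, 3028 and 3271 CPM against 636, 714 and 686 CPM, lowest after saline. The part of these cell types in the results below was not tested.

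Natural killer T-like cells made up their largest share of T cells at 4 h. The shares were 1.08% (0.81% to 1.4%) after saline, 1.85% (1.5% to 2.26%) at 4 h and 1.29% (0.996% to 1.63%) at 8 h. The share at 4 h was 1.72 (1.22 to 2.45) times that of saline. At 8 h the ratio to saline was 1.19 (0.821 to 1.74), an interval that includes 1, and the ratio to 4 h was 0.695 (0.5 to 0.961). The order of 4 h, 8 h and saline also held for the numbers with Zbtb16 alone, with Klrb1c alone and with both. For Klrb1c alone the 4 h ratio to saline was 1.72 (1.11 to 2.71). For Zbtb16 alone it was 1.53 (0.751 to 3.24) and for both 2.12 (0.75 to 6.79), with intervals that include 1. With only the cells that had at least 90% of tag reads from their own tag, the ratios to saline were 1.93 (1.34 to 2.81) at 4 h and 1.35 (0.915 to 2.02) at 8 h. Without the cells that had γ constant molecules they were 1.75 (1.09 to 2.86) and 0.876 (0.495 to 1.54). A difference between pools in mice or handling cannot be told apart from one between treatments.

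The selected cells were also counted by whether they held a Cxcr6 molecule, a division chosen after its values were seen. The level of Cxcr6 itself differed between the pools, so the division does not place the difference in number in a kind of cell. Selected cells with a Cxcr6 molecule numbered 25, 75 and 45 and those without one 29, 20 and 21. As shares of T cells, those with Cxcr6 had a ratio to saline of 2.93 (1.84 to 4.81) at 4 h and 1.76 (1.06 to 2.99) at 8 h. Those without Cxcr6 had ratios of 0.674 (0.361 to 1.23) and 0.707 (0.383 to 1.28), both with intervals that include 1. Cxcr6 was thus detected in 46.3, 78.9 and 68.2% of the selected cells, and in 43.4, 64.5 and 62.5% after thinning each cell to 1500 molecules. Fewer cells with Cxcr6 and less Cxcr6 RNA per cell cannot be told apart. T cells outside the rule that had Cxcr6, none of the excluded genes and neither selecting gene made up 0.878, 1.58 and 1.25% of T cells. Their ratios to saline were 1.8 (1.23 to 2.66) at 4 h and 1.42 (0.953 to 2.14) at 8 h.

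**Figure D2:**
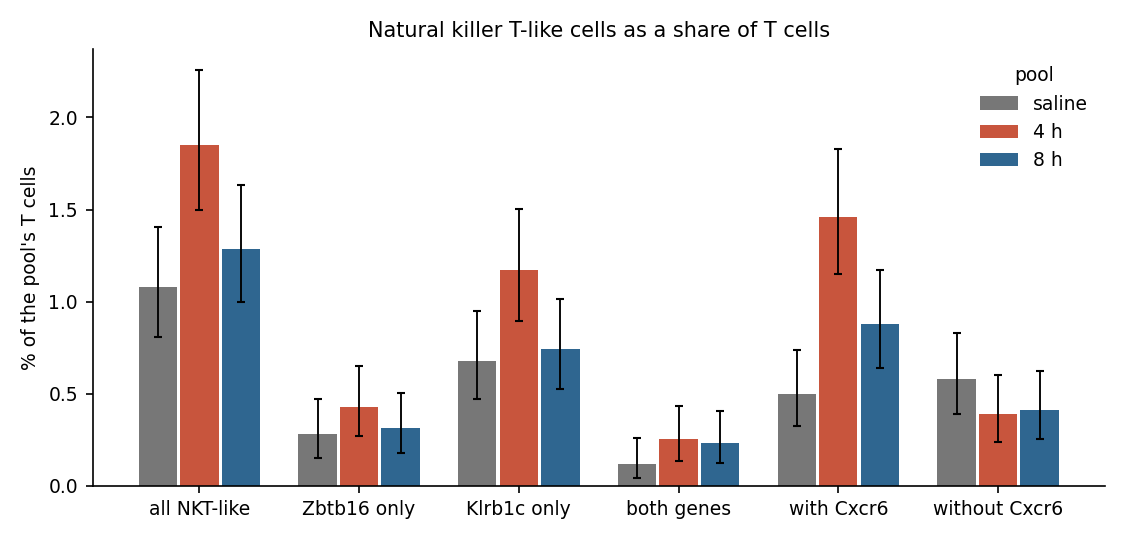
Natural killer T-like cells and their divisions as a percentage of the T cells of each pool, with bars for the share and lines for exact 95% intervals of counting error. The bars of cells with Cxcr6 stand at 0.499% (0.323% to 0.735%) after saline and 1.46% (1.15% to 1.83%) at 4 h, while the intervals of cells without Cxcr6 overlap in all pools.

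Cd4 detection was highest after saline, though the intervals of all pools overlap. Mouse natural killer T cells are mostly CD4-positive or negative for both coreceptors, and the rule had excluded CD8. A Cd4 molecule was found in 29, 35 and 22 cells, or 53.7% (39.6% to 67.4%), 36.8% (27.2% to 47.4%) and 33.3% (22.2% to 46%). After thinning it was found in 34, 24.7 and 21.9%. Cells without Cd4 had ratios to saline of 2.34 (1.45 to 3.9) at 4 h and 1.72 (1.03 to 2.93) at 8 h as shares of T cells. For cells with Cd4 the ratios were 1.18 (0.7 to 2) and 0.741 (0.406 to 1.34), with intervals that include 1. This division, too, was chosen after its values were seen and rests on a gene that differed between the pools.

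**Figure D3:**
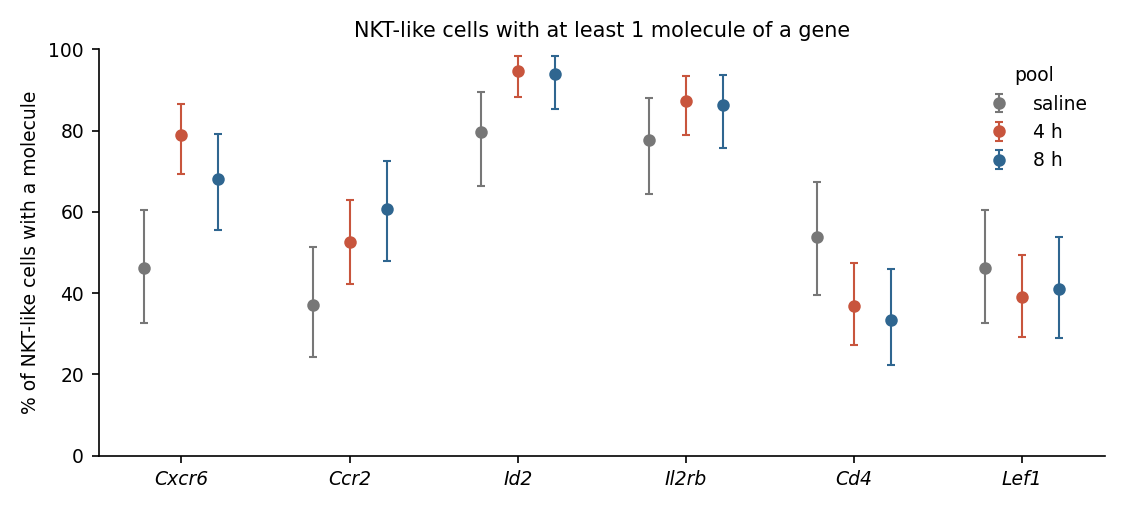
Percentage of natural killer T-like cells with at least 1 molecule of Cxcr6, Ccr2, Id2, Il2rb, Cd4 or Lef1, by pool, with points for the share and lines for exact 95% intervals of counting error. Cxcr6 stands at 46.3, 78.9 and 68.2%, and of its intervals only those of saline and 4 h lie apart. Cd4 stands at 53.7, 36.8 and 33.3%, and its intervals, like those of Lef1, overlap in all pools.

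Set against all other T cells, the natural killer T-like cells carried transcripts of the T-bet type and of natural killer receptors. The cells were selected from these same measurements, so the values describe them and are not a test. Of 4004 genes with at least 30 molecules in the selected cells, 7.04% were at least 1.5-fold higher than in other T cells in each of the 3 pools, and 1.45% were at least 1.5-fold lower in each. All 13 measured genes of the interferon-γ type list were higher in each pool. Klrb1c belongs to that list but, as a selecting gene, was not counted. Because it selected cells, the levels of this list and of natural killer receptors are not independent of the rule. Il2rb, the β chain of the interleukin-2 and interleukin-15 receptors, stood at 1126, 1370.0 and 1448 CPM against 227, 244 and 241 CPM. Ccl5, a chemokine of memory and innate-like lymphocytes, stood at 1819, 1785 and 1788 CPM against 257, 319 and 313 CPM. Xcl1, a chemokine that attracts dendritic cells, stood at 271, 307 and 241 CPM against 15.7, 22.5 and 26.9 CPM. Each of these lay above the other T cells in all pools. Tbx21, which encodes T-bet itself, stood at 80.8, 119.8 and 167 CPM against 10.7, 16.2 and 13.9 CPM, and Ifng, which encodes interferon-γ, had 5, 17 and 14 molecules in 4, 12 and 11 cells.

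All 12 measured genes of the natural killer receptor list were higher than in other T cells in each pool, beside 7.04% of all genes. Klrk1, which encodes the activating receptor NKG2D, stood at 225, 292 and 384 CPM against 7.43, 10.6 and 10.3 CPM. Klrd1, which encodes CD94, stood at 502, 457 and 325 CPM against 183, 193 and 177 CPM. Klra1 and Klra9, of the Ly49 receptor family, had 23, 32 and 50 and 9, 17 and 31 molecules, in few cells. Ly49 and NKG2 genes have close relatives, and the sources used here do not say how the authors' counting shared reads between them. Of 9 measured cytotoxic genes 8 were higher, among them Nkg7, a granule protein, at 404, 636 and 689.6 CPM against 232, 260.2 and 239 CPM. CD8 T cells with Ccl5 had more Nkg7 than the selected cells in every pool. Among killing effectors Gzmb had 3, 6 and 2 molecules and Prf1 8, 4 and 8. Gzma, another granule protease, had 8, 6 and 22 molecules in 3, 3 and 4 cells, at 46.2, 22.5 and 108 CPM against 24.1, 10.9 and 20.7 CPM, higher in each pool and highest at 8 h. Fgl2, a secreted immunoregulatory protein, Tnfsf14, the cytokine LIGHT, and Itga1, the integrin α1 subunit, were also among the 20 genes with the widest margin. Fgl2 stood at 75.1, 153 and 113 CPM against 3.6, 5.27 and 5.54 CPM and Tnfsf14 at 63.5, 153 and 118 CPM against 5.22, 7.44 and 8.64 CPM. Itga1 had 7, 23 and 12 molecules.

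Genes of the other natural killer T types had fewer molecules. The selecting gene Klrb1c belongs to the interferon-γ type list and Zbtb16 to the Th2-like list. Klrb1c alone brought in 34, 60 and 38 cells and Zbtb16 alone 14, 22 and 16. The rule thus weighs the lists unequally, and their levels do not rank the types. Of the 7 measured genes of the Th2-like list 3 were higher than in other T cells in each pool and 1, Il6ra, was lower. Of all genes 7.04% were higher and 1.45% lower. Il17rb, the interleukin-25 receptor of that type, stood at 80.8, 71.1 and 148 CPM against 2.5, 2.53 and 1.73 CPM, in 6, 14 and 10 cells. Gata3, the Th2 factor, stood at 167, 251 and 261 CPM against 82.1, 85.2 and 84.4 CPM, and Il4 had 6, 11 and 4 molecules. Of the Th17-like list 14 genes were in the table and 0 reached 30 molecules. Its summed level was nevertheless above the other T cells in every pool, at 196, 232 and 158 CPM against 29.9, 37 and 30.7 CPM. A molecule of any gene of that list was found in 5, 12 and 6 cells, or 9.26, 12.6 and 9.09% against 4.54, 5.48 and 4.38% of the other T cells.

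Genes of naive T cells were lower. Of the 11 measured genes of the naive and homing list 7 were lower than in other T cells in each pool and 1 was higher. Of all genes 1.45% were lower and 7.04% higher in each pool, so 1 higher gene of 11 is near that share. Ccr7, a chemokine receptor for lymph node entry, had 5, 4 and 2 molecules, and Lef1, a factor of naive T cells, stood at 266, 206 and 296 CPM against 753, 746 and 728 CPM. S1pr1, the receptor for egress from lymphoid organs, stood at 208, 157 and 197 CPM against 515, 506 and 497 CPM. The gene that went the other way was Il7r, the interleukin-7 receptor, at 1553, 1493 and 1719 CPM against 976, 947 and 982 CPM. Of 16 measured memory genes 11 were higher and 0 lower, among them S100a6 at 433, 363 and 433 CPM against 66.6, 78.3 and 61.3 CPM. Of 14 cytokine receptor genes 7 were higher and 1 lower. Il18r1, a receptor chain for interleukin-18, stood at 341, 269.5 and 379 CPM against 62.4, 67.5 and 67.6 CPM. Aqp9, a glycerol channel, stood at 57.7, 131 and 133 CPM against 2.65, 2.96 and 3.67 CPM, and Asb2, a ubiquitin ligase subunit, at 57.7, 146 and 177 CPM against 5.3, 4.33 and 5.04 CPM.

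The T cells chosen as most alike had less Cxcr6, Ccr2, Id2 and Il2rb in every pool, but some other genes described above were as high or higher in them in at least 1 pool. CD8 T cells with Ccl5 had Cxcr6 at 100.2, 95.1 and 67.9 CPM, Ccr2 at 65.3, 74 and 46.5 CPM and Id2 at 172, 229.6 and 158 CPM. CD4 T cells with S100a4 and Itgb1, of which there were 23, 43 and 39, had Cxcr6 at 41.2, 104 and 85 CPM, Ccr2 at 103, 195 and 109 CPM and Id2 at 504, 891 and 607 CPM. The CD8 T cells, chosen by Ccl5, had Ccl5 at 2147, 2376 and 2424 CPM, and their Nkg7, at 695, 712 and 735 CPM, and Ly6c2, at 2270.1, 1904 and 2030.2 CPM, were also above the selected cells in every pool. Their Klrd1, at 446, 464 and 419 CPM, was below the selected cells after saline and above them at 4 h and 8 h. The CD4 T cells had S100a6 at 1183, 1114 and 874 CPM, above the selected cells in every pool, and Gata3 at 298, 285 and 261 CPM, above them after saline and at 4 h and level with them at 8 h. Higher Nkg7, Ccl5, Klrd1, Gata3 and S100a6 than in all other T cells are therefore not particular to the selected cells. These groups were defined by measured genes as well, so the values are a description.

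At 4 h the chemokine receptors Cxcr6 and Ccr9 and the activating receptor gene Cd226 were higher in the selected cells than after saline, and Itga4 and Tcf7 were lower. The direction of Itga4 was reversed under stricter selecting rules. Of 2904 genes with at least 30 molecules over both pools, 12.8% were at least 1.5-fold higher and 8.47% at least 1.5-fold lower, with a median log2 ratio of 0.02. At 8 h, 10.9% of 2474 genes were at least 1.5-fold higher than after saline and 8.97% at least 1.5-fold lower, again with a median of 0.02. Both comparisons use the same 54 saline cells, so an unusual saline value enters both.

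Among the genes higher at 4 h, Cxcr6 had a ratio to saline of 2.14 (1.68 to 2.74), and of 1.69 (1.3 to 2.21) at 8 h. Its ratios were 1.2 and 1.02 in the other T cells, and 1.18 and 1.11 within the selected cells that had a Cxcr6 molecule. Ly6c2, a surface antigen of memory T cells on chromosome 15 at 75108158 to 75111970, stood at 595, 1243 and 1483 CPM in 20, 46 and 28 cells. Both drug pools lay above saline, with ratios of 2.09 (1.67 to 2.63) and 2.49 (1.99 to 3.15), beside 1.04 and 0.986 in the other T cells. Ly6c2 is also a gene of memory CD8 T cells, and CD8 T cells with Ccl5 had it at 2270.1, 1904 and 2030.2 CPM. The part of such cells in its ratios was not tested. Within cells with Cxcr6 the Ly6c2 ratios were 1.77 and 2.33. Cd226, which encodes the activating receptor DNAM-1, stood at 127, 348 and 305 CPM in 16, 55 and 30 cells. Its ratios were 2.74 (1.71 to 4.58) and 2.4 (1.46 to 4.11), and 2.36 and 2.11 within cells with Cxcr6. Ly6c2 and Cd226 were therefore higher in both drug pools whether or not cells without Cxcr6 were counted.

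Ccr9, a gut homing receptor, stood at 80.8, 284 and 128 CPM, highest at 4 h, with ratios of 3.52 (1.97 to 6.74) and 1.58 (0.798 to 3.28). Within cells with Cxcr6 the Ccr9 ratios were 1.91 and 1. Arsb, a lysosomal sulfatase, stood at 52, 168 and 182 CPM in 8, 31 and 26 cells, with ratios of 3.24 (1.56 to 7.54) and 3.51 (1.66 to 8.26) beside 1.46 and 1.26 in the other T cells. Arl4d, a small GTPase, stood at 63.5, 195 and 187 CPM, and both drug pools lay above saline, at 3.06 and 2.95 times its level. Abcb1a, the drug efflux pump P-glycoprotein, stood at 34.6, 131 and 83.7 CPM, with a ratio of 3.78 (1.57 to 11) at 4 h. Med12, a subunit of the Mediator complex, had 9, 46 and 17 molecules and Atp8a2, a phospholipid flippase, had 5, 32 and 10, both highest at 4 h. Mki67, the proliferation marker, had 2, 40 and 0 molecules, and all 40 at 4 h came from 1 cell, so its ratio describes that cell alone.

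Lower at 4 h were Itga4 and Tcf7, followed by genes with fewer molecules. Itga4, the integrin α4 subunit that binds VCAM-1, on chromosome 2 at 79255426 to 79333123, stood at 606, 187 and 315 CPM against 469, 494 and 469 CPM in the other T cells. Saline was the highest pool, and the ratios to it were 0.309 (0.216 to 0.436) and 0.52 (0.375 to 0.716). The direction depended on cells near the selecting threshold, since with 2 or more molecules of Zbtb16 and Klrb1c the Itga4 ratios were 1.26 and 1.6. With at least 1 Zbtb16 molecule required, both Itga4 ratios also lay above 1. Tcf7, the factor TCF-1 of naive and memory T cells, on chromosome 11 at 52252371 to 52283014, stood at 797, 348 and 483 CPM. Its ratios were 0.437 (0.332 to 0.572) and 0.606 (0.463 to 0.791), beside 1.09 and 1.01 in the other T cells, and 0.623 and 0.769 within cells with Cxcr6. Il6st, which encodes the interleukin-6 signal transducer gp130, had 24, 11 and 4 molecules, and within cells with Cxcr6 its 4 h ratio was 1.07. Nsg2 stood at 185, 63.6 and 44.3 CPM, S100a4, a calcium-binding memory protein, at 133, 37.4 and 123 CPM and Actn1, an actin crosslinker, at 121, 33.7 and 93.6 CPM. Nsg2 was low in both drug pools, and S100a4 and Actn1 mainly at 4 h. Timp2, Mtch1 and Nab1 had 24, 8 and 16, 22, 8 and 8 and 25, 12 and 16 molecules. The smaller share of saline cells with Cxcr6 moved with these genes, and its part in them was not tested.

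**Figure D4:**
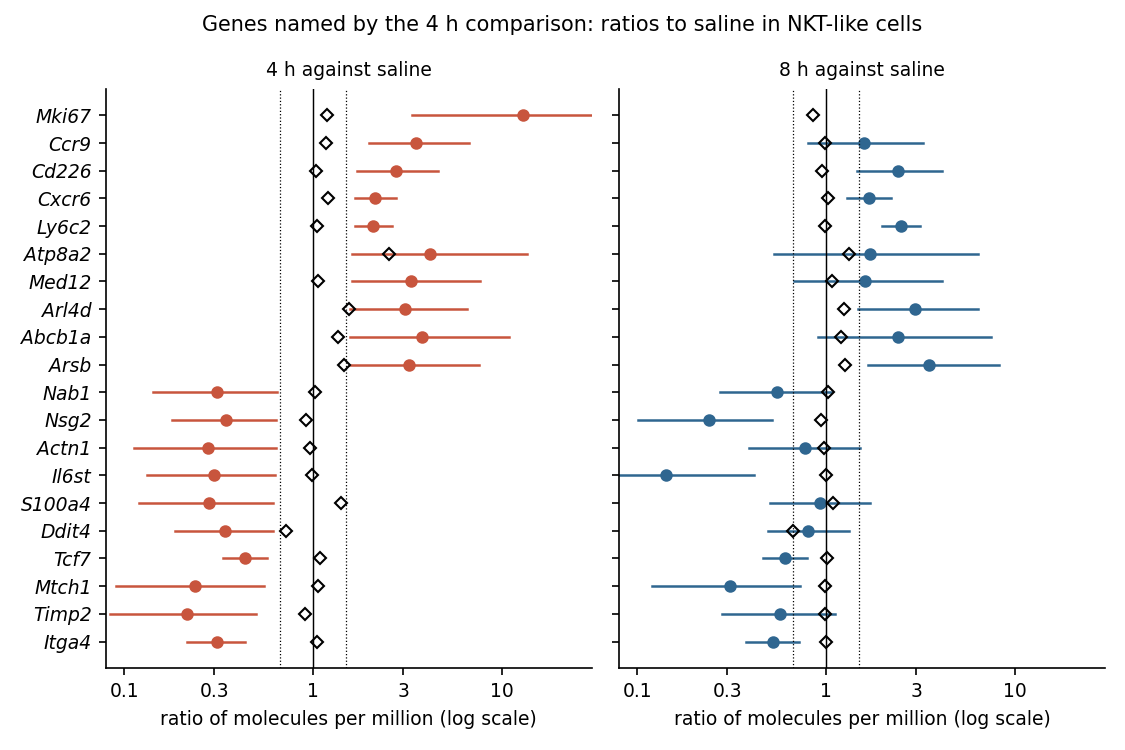
Ratios to saline in natural killer T-like cells at 4 h (left) and 8 h (right), on a log scale, of the 10 genes highest and the 10 lowest at 4 h, with lines for 95% intervals of counting error. Open diamonds give the ratio in all other T cells and dotted lines mark 1.5-fold, the line of Mki67 runs off the axis at 4 h, and Mki67 has no molecule at 8 h. Cxcr6, Ly6c2, Cd226, Arl4d and Arsb have intervals above 1 at both times.

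At 8 h the highest ratios took in Ccr2. It stood at 2.06 (1.48 to 2.89) times saline at 8 h and 1.37 (0.98 to 1.94) times at 4 h, beside 1.32 and 1.74 in the other T cells. Within cells with Cxcr6 the Ccr2 ratios were 1.64 at 8 h and 0.867 at 4 h. Rbck1, a subunit of the linear ubiquitin ligase, stood at 40.4, 86.1 and 182 CPM, a ratio of 4.51 (1.98 to 12) at 8 h. Sharpin, another subunit of that ligase, lay the other way, at 156, 89.8 and 49.3 CPM and a ratio of 0.316 (0.136 to 0.674). Nktr, a cyclophilin-related protein, stood at 127, 251 and 330.0 CPM, Aplp2, a relative of the amyloid precursor protein, at 52, 135 and 172 CPM and Asb2 at 57.7, 146 and 177 CPM. Nktr, Aplp2 and Asb2 were higher in both drug pools than after saline. Socs2, an inhibitor of cytokine signalling, had 7, 26 and 27 molecules.

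Among genes lower at 8 h, Cd27, a costimulatory receptor, stood at 335, 217 and 153 CPM, a ratio of 0.456 (0.285 to 0.717). Smc4, a condensin subunit, stood at 612, 329 and 271 CPM, with ratios of 0.538 (0.401 to 0.721) and 0.443 (0.314 to 0.619). With 2 or more molecules of the selecting genes the Smc4 ratios were 2.1 and 1.5, the other way. Ash1l, a histone methyltransferase, had 42, 51 and 16 molecules, H2-Ke6 had 26, 21 and 7 and Erg28 had 25, 17 and 10, each lowest at 8 h. Egr3, an immediate early factor of receptor signalling, had 36, 32 and 4 molecules in 5, 2 and 1 cells, and 93.8% of those at 4 h came from 1 cell. Eomes, a T-box factor of natural killer and memory CD8 cells, had 18, 10 and 0 molecules and Id3, another inhibitor of E proteins, had 16, 4 and 4. Those 2 genes were named after their values were seen.

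Interferon-induced genes stood out as a group at 4 h. Of 20 genes in the list 11 had enough molecules, and 7 of them were at least 1.5-fold higher at 4 h and 0 lower, beside the 12.8% and 8.47% of all genes. Their median log2 ratio was 0.79 beside 0.02 for all genes. At 8 h 0 of 8 measured genes were past 1.5-fold either way, with a median of 0.03. Of all genes 10.9% were higher and 8.97% lower at 8 h, so 0 of 8 is near those shares. Igtp, a GTPase induced by interferon-γ, on chromosome 11 at 58199556 to 58207591, stood at 98.2, 247 and 88.7 CPM, with ratios of 2.52 (1.46 to 4.58) and 0.903 (0.439 to 1.87). Ifi47, a GTPase of the same family, stood at 294, 509 and 374 CPM, with ratios of 1.73 (1.24 to 2.43) and 1.27 (0.88 to 1.85). Both were highest at 4 h. Xaf1 had 6, 32 and 20 molecules, Gbp2, a guanylate-binding protein, 12, 38 and 21, and Ifit1, an antiviral RNA-binding protein, 5, 25 and 4. In the other T cells Igtp, Ifi47, Xaf1 and Gbp2 had ratios of 1.06, 1.05, 1.15 and 1.02 at 4 h.

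The interferon molecules were uneven among cells. At 4 h 1 cell held 125 of the 861 molecules of the list, while the highest cells of the other pools held 36 after saline and 29 at 8 h. The median cell held 5, 6 and 6 such molecules, and 20.4%, 23.2% and 21.2% of cells held at least 10. Without the cell richest in them in each pool, 4 genes were past 1.5-fold at 4 h. Among selected cells without γ constant molecules 0 of 5 measured genes were, and the 4 h ratio of Igtp there was 0.977. With 1500 molecules drawn from each cell, 1 of 5 measured genes was. In the main comparison 12.8% of all genes were higher at 4 h, and a count of 0 or 1 among 5 genes is near such a share.

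**Figure D5:**
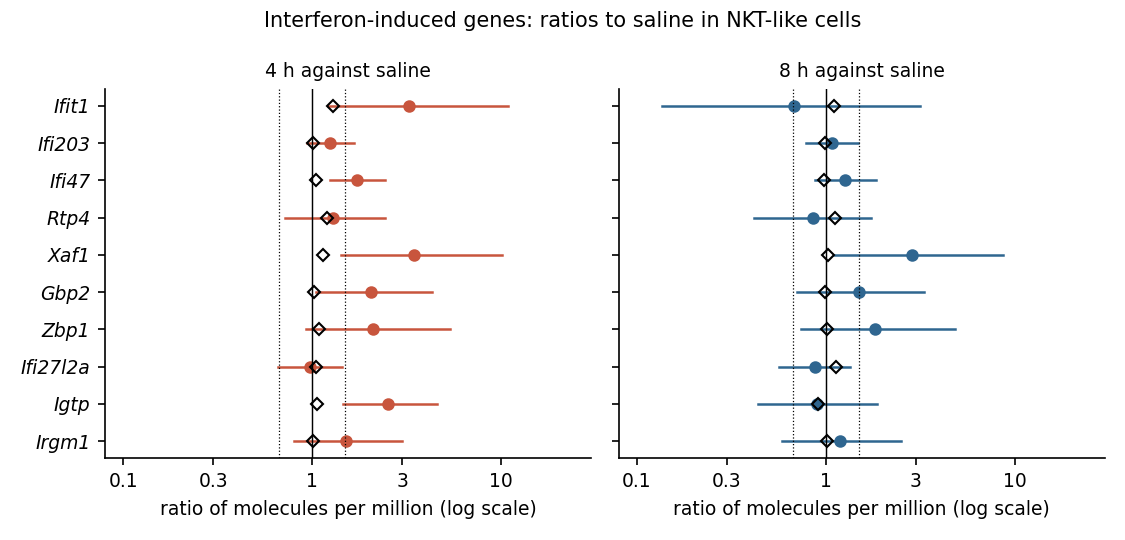
Ratios to saline in natural killer T-like cells of 10 of the 11 interferon-induced genes with at least 30 molecules at 4 h and saline, with 4 h on the left, 8 h on the right, circles and 95% lines of counting error for the selected cells and diamonds for all other T cells. At 4 h 7 circles lie past the dotted 1.5-fold line, and at 8 h Xaf1 and Zbp1 lie past it but had fewer than 30 molecules and were not counted.

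Chemokine receptors were another group above the share of all genes. Of 7 measured genes 4 were at least 1.5-fold higher at 4 h, among them Cxcr6, Ccr9 and Cxcr3, and of 6 at 8 h 3 were, namely Cxcr6, Ccr9 and Ccr2, with 0 lower at either time, beside 12.8% of all genes higher at 4 h and 10.9% at 8 h. Cxcr3, the receptor for interferon-induced chemokines, stood at 196, 333 and 266 CPM, with ratios of 1.7 (1.13 to 2.6) and 1.35 (0.866 to 2.15). Of the 10 measured genes of the interferon-γ type 4 were higher at 4 h and 0 lower, beside 12.8% and 8.47% of all genes, and at 8 h 3 were higher and 2 lower, beside 10.9% and 8.97%. Tbx21 had ratios of 1.48 (0.769 to 3.01) and 2.07 (1.08 to 4.18), while Ccl5 had 0.982 (0.85 to 1.14) and 0.983 (0.843 to 1.15), with intervals that include 1. Nkg7 had 1.57 (1.19 to 2.11) and 1.71 (1.27 to 2.31). Natural killer receptor genes went both ways. Of 9 measured at 4 h 2 were higher, Cd226 and Klrc1, and 1 was lower, Klra7. Of 10 at 8 h 4 were higher, Cd226, Klrk1, Klra1 and Klra9, and 3 were lower, Klrc1, Klrc2 and Klrd1. Klrd1 and Klrk1 differed in direction at 8 h, with ratios of 0.647 (0.463 to 0.902) and 1.71 (1.15 to 2.57), and Klrc1, which encodes the NKG2 partner of CD94, had 20, 50 and 10 molecules.

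Of 15 measured memory genes 5 were lower at 4 h, namely Itga4, S100a4, Lgals1, S100a11 and Vim, beside 8.47% of all genes, and 1, Itgb2, was higher, beside 12.8%. At 8 h 1 was lower, beside 8.97%, and 3 were higher, beside 10.9%. S100a11 stood at 808, 464 and 557 CPM and Lgals1, which encodes galectin-1, at 456, 296 and 478 CPM, with ratios at 4 h of 0.574 (0.447 to 0.736) and 0.648 (0.469 to 0.897). Itgb2, the β2 integrin subunit, stood at 560.1, 865 and 852 CPM, higher in both drug pools, with ratios of 1.54 (1.21 to 1.98) and 1.52 (1.18 to 1.97). Of 9 measured factors of innate-like T cells 2 were lower at 4 h, Maf and Ikzf2, and 0 higher, beside 8.47% and 12.8% of all genes. At 8 h 2 of 10 were higher, Gata3 and Tbx21, and 0 lower, beside 10.9% and 8.97%. Maf, a factor of Th17-like and interleukin-10 producing cells, stood at 537, 296 and 557 CPM, lower at 4 h alone, with a ratio of 0.551 (0.403 to 0.751). Of the 7 Th2-like genes 2 were lower at 4 h, Il6ra and Slamf6, and 1 was higher, Plac8. Of 6 at 8 h 2 were higher, Gata3 and Il17rb, and 2 lower, Icos and Slamf6, so this list had no one direction. Slamf6, a receptor used in natural killer T cell selection, stood at 243, 116 and 133 CPM, with ratios of 0.478 (0.291 to 0.779) and 0.548 (0.325 to 0.911). Icos, a costimulatory receptor, stood at 577, 389 and 369 CPM, with ratios of 0.674 (0.507 to 0.896) and 0.64 (0.468 to 0.872). Plac8 stood at 69.3, 183 and 83.7 CPM.

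A list of 17 genes was taken from an earlier comparison of all T cells of these pools, so its direction here is not independent. Of its 13 measured genes 4 were higher and 3 lower at 4 h, beside 12.8% and 8.47% of all genes. At 8 h 2 were higher and 1 lower, beside 10.9% and 8.97%. Ddit4, a target of stress and glucocorticoids, stood at 208, 71.1 and 167 CPM, with ratios of 0.342 (0.185 to 0.612) and 0.806 (0.489 to 1.32) beside 0.723 and 0.668 in the other T cells. Tsc22d3, the glucocorticoid-induced leucine zipper gene, had 8, 5 and 4 molecules, at 46.2, 18.7 and 19.7 CPM against 149, 101 and 111 CPM in the other T cells. Zfp36l2, an mRNA decay factor, had ratios of 0.935 (0.75 to 1.17) and 0.847 (0.665 to 1.08) beside 0.804 and 0.781. Cpt1a, the gate of mitochondrial fatty acid oxidation, had ratios of 1.82 (0.856 to 4.19) and 2.22 (1.03 to 5.15) beside 1.45 and 1.14. Whether any ratio differed between the selected cells and the other T cells was not tested.

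Of the GABA-related genes and Tspo, 14 were in the table, 4 had a molecule in the selected cells and 2 had enough to compare. Tspo, the mitochondrial benzodiazepine-binding protein, stood at 144, 86.1 and 113 CPM, with ratios of 0.596 (0.323 to 1.09) and 0.785 (0.426 to 1.44), both with intervals that include 1. Gabarap, an autophagy protein first found as a GABA(A) receptor partner, had ratios of 0.814 (0.619 to 1.07) and 1.02 (0.772 to 1.35).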

How the data were processed

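Spleen cells were measured by BD Rhapsody whole-transcriptome single-cell sequencing with sample tags. The authors' pipeline was BD Rhapsody WTA Multiplex 1.9.1 with GRCm38 and GENCODE M19, per the file headers, and the aligner is not stated there. In the deposited table are error-corrected molecule counts per cell and gene, and further deposited files hold the tag calls and tag read counts. Cells called for the tag of saline, 4 h or 8 h entered when they had 200 or more genes and less than 25% mitochondrial molecules, and T cells had at least 1 molecule of Cd3d, Cd3e or Cd3g. Cells that the authors called multiplets were left out, doublets within a pool were not removed, no doublet caller was run and ambient RNA was not corrected. The 5% of cells with the most molecules took in 9 of 54, 7 of 95 and 8 of 66 selected cells. The same 5% took in 242 of 5013, 269 of 5133 and 246 of 5132 T cells. Whether these were doublets was not tested. For each pool and class of cells the molecules of a gene were added up and scaled to the total (CPM). Shares have exact Clopper-Pearson intervals and ratios exact conditional binomial intervals, at 95%. The scripts for ratios were tested on simulated data. Gene positions are those of the annotation on GRCm38, matched by symbol.

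The rule for the cells, the gene lists and the comparisons were chosen with earlier results of these data known. Named genes are the 5 markers, the 10 highest and 10 lowest for each comparison with saline by the interval bound nearest 1, the 20 highest and 10 lowest against other T cells by the pool ratio nearest 1, and 2 to 4 genes of each list with the most molecules. Selecting, receptor segment, immunoglobulin, haemoglobin, mitochondrial and ribosomal protein genes and Xist were set aside. Other genes were named after their values were seen. Alternatives were TMM scaling (edgeR 4.0.16, R 4.3.3), other minimum counts, equal weight per cell, a stricter cell filter, other selecting rules, thinning to 1500 molecules, tag purity, uncorrected molecules and leaving out the 5% of cells with the most molecules. Python 3.11.15 was used with numpy 2.4.6, pandas 2.3.3, scipy 1.17.1 and matplotlib 3.10.9. Some genes are not reported here.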

Additional observations from a re-analysis of the deposited data

Results flagged for a closer look

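A signal was also present in cells that no comparison used. Of 1045 T cells that the authors called multiplets 11, or 1.05%, met the same molecular rule as the natural killer T-like cells, with a median of 4265 molecules over all multiplets. Of 51 T cells with an undetermined tag 2 met it. These cells have no treatment, so none of them entered a pool.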

How the results depend on the processing

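The share of natural killer T-like cells at 4 h kept its direction under all alternatives run, with ratios to saline of 1.61 to 2.12, and 2.93 for cells with Cxcr6. At 8 h the ratio was 1.95 (0.679 to 6.34) with both selecting genes required and 1.76 (1.06 to 2.99) with Cxcr6. It fell below 1 without γ constant molecules, with an interval that includes 1. Counts of genes past 1.5-fold are given as higher and lower at 4 h, then higher and lower at 8 h. From 371, 246, 269 and 222, they became 2780, 3049, 2674 and 2786 with no minimum of molecules, 113, 66, 71 and 56 with a minimum of 60, 159, 127, 140 and 94 with at least 1 Zbtb16 molecule required, 184, 121, 107 and 99 with cells thinned to 1500 molecules and 205, 127, 115 and 98 without γ constant molecules. With 2 or more selecting molecules 142 were lower at 4 h, and 177 higher and 124 lower at 8 h, and among cells with Cxcr6 122 were lower at 8 h. The 7 of 11 measured interferon genes higher at 4 h became 13 of 20 with no minimum, where 2780 of all genes were higher. They became 2 with a minimum of 60, 1 with Zbtb16 required and 3 with 2 or more selecting molecules. After thinning 1 was higher, without γ constant molecules 0, and without the cell richest in these molecules 4. Each setting measured its own number of interferon genes, so fewer measured genes and lower ratios cannot be told apart in these counts. After thinning and without γ constant molecules only 5 were measured. A count of 0 or 1 among 5 is near the 12.8% of all genes higher at 4 h in the main comparison. With Zbtb16 required, 4 h ratios turned to 4.37 for Il6st, 0.819 for Irgm1, 3.64 for Itga4 and 0.794 for Rgs1, and 8 h ratios to 12 for Itga4 and 1.002 for Cd4. With 2 or more selecting molecules they turned at 4 h to 1.07 for Egr3, 0.873 for Irgm1, 1.26 for Itga4 and 2.1 for Smc4, and at 8 h to 1.6 for Itga4 and 1.5 for Smc4. Without γ constant molecules the 4 h ratio was 0.977 for Igtp, and with Cxcr6 it was 1.07 for Il6st. The computed 4 h ratio of Mki67 was 0.635 without γ constant molecules and 0.538 without the 5% of cells with the most molecules. Neither Mki67 value is a measured ratio. The 1 cell with Mki67 at 4 h was left out in both settings, so a minimum value replaced an absent count. These values therefore do not show lower Mki67 at 4 h. Smaller sets of cells and other minimum counts change how many genes are measured, and other causes were not tested. Of the single-gene ratios, tallied with the 8 h interferon counts, 1212 stayed, 99 moved and 16 reversed. The reversed ones include both Mki67 values. A ratio stayed when it lay within the counting interval of its main value. Changing only the minimum count or the scaling hardly alters a gene's own ratio, so such entries could hardly move. Of shares and counts 60 stayed and 34 moved. The divisions by γ constants and Cxcr6 and all alternatives of the interferon count were chosen after seeing the data. No paired analysis was possible because each treatment has 1 pool, and for the same reason no pool could be left out. Depth limits single genes, since 3 molecules equal 17.3, 11.2 and 14.8 CPM.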
